A study of Mus musculus with 8 samples.

Results

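The genes described are those of antigen presentation by MHC class II, followed in cultured mouse macrophages with and without the mineralocorticoid receptor. They are H2-Aa, H2-Ab1, H2-Eb1, Cd74, H2-DMa, H2-DMb1, H2-DMb2, H2-Oa, H2-Ob and Ciita, 10 genes chosen by their known role in the pathway, with earlier results of these data known. Every probe set that the array annotation assigns to any of them was taken, whatever its values. This gave 22 of the 45037 probe sets that are not controls. Of these, 19 belong to 1 gene and 3 to several: 1418638_at and 1449580_s_at read H2-DMb1 or H2-DMb2, and 1422201_at reads H2-Ob or Gm20506. H2-DMb1 has no probe set of its own, so 9 of the 10 genes have one.

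The cells were peritoneal macrophages of male C57BL6/J mice, drawn by 3% thioglycolate, collected after 4 days and kept by adherence, as the labels describe. All mice carried MR fl / fl, the floxed mineralocorticoid receptor gene Nr3c2. The groups were knockout cells (MR fl / fl, LysM cre) given 1 µM corticosterone for 24 h, knockout cells left untreated, control cells (MR fl / fl, no Cre) given the same corticosterone, and control cells left untreated. There were 2 arrays in each group, and each sample was itself a pool of triplicate experiments. LysM Cre is expressed in macrophages, monocytes and neutrophils, so lymphocytes in the cultures would keep the receptor gene. Corticosterone is the main glucocorticoid of mice and binds both the glucocorticoid and the mineralocorticoid receptor.

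MHC class II molecules show peptides from engulfed material to CD4 T cells. Their α and β chains assemble with the invariant chain Cd74, whose remnant is exchanged for a peptide with the help of the DM heterodimer, and the DO heterodimer restrains DM. Ciita is the coactivator that switches the whole set on. It binds no DNA itself but docks onto factors held at the X and Y boxes in front of these genes. B cells and dendritic cells express class II constitutively, whereas macrophages raise it mainly under interferon gamma.

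The sequences before the starts of these genes are shown because many of the genes shifted in the same direction, and because H2-DMb1 and H2-DMb2 are close copies that 2 of the probe sets cannot tell apart. RefSeq promoter entries of GRCm38.p6 matched 7 of the 10 genes. The Y box was searched as GATTGG on both strands, in the 250 bases before each start. It was present in 7 of the 8 promoter entries of these genes and in 14.6% of all 32851 entries. H2-DMa has 2 entries, of which 1 lacks it, so each of the 7 genes has a match. A stretch of the X box, written AAC, any 2 bases and ATGATG, whose letters were chosen after these sequences were seen, was present in 4 of the 8 entries and in 0.119% of all entries, so its count here is no test. The glucocorticoid response element, written AGAACA, any 3 bases and TGTTCT, was found in 0 of the 8 and in 0.00913% of all entries. The 2 motifs that were found do not overlap each other in these windows. In the sequences below, 140 bases directly before the start are given 5′ to 3′ along the gene, with matches in capitals. The windows are chr17:34305727-34305866 for H2-Eb1, chr17:34145109-34145248 for H2-DMb2, chr17:34153051-34153190 for H2-DMb1, chr17:34238765-34238904 for H2-Ob, chr17:34287824-34287963 for H2-Aa and chr17:34092239-34092378 for H2-Oa. H2-Aa lies on the minus strand and the others on the plus strand.
H2-Eb1: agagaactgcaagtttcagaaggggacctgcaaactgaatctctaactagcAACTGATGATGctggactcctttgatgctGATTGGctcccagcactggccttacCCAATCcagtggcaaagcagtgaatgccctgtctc
H2-DMb2: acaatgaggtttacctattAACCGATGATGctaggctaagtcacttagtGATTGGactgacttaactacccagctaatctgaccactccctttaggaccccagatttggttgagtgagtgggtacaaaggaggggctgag
H2-DMb1: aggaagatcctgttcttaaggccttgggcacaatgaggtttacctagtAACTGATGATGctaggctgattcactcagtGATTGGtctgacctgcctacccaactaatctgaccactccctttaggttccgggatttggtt
H2-Ob: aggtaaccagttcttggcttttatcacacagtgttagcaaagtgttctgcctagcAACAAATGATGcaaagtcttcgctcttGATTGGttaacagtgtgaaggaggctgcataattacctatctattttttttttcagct
H2-Aa: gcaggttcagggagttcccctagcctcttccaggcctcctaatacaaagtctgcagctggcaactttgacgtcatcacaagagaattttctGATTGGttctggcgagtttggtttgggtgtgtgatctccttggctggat
H2-Oa: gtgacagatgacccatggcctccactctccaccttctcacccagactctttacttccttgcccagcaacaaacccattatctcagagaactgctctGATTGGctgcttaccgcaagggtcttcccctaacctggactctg
In H2-DMb1 and H2-DMb2 the X stretch and the Y box are 19 bases apart, in H2-Eb1 18 and in H2-Ob 16. The pair of H2-DMb2 lies farther from the start, with the Y box at 91 to 86 bases before it, against 62 to 57 in H2-DMb1. H2-Eb1 has a further match on the opposite strand, at 35 to 30 bases before the start. H2-Aa and H2-Oa show the Y box without this X stretch.

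**Figure D1:**
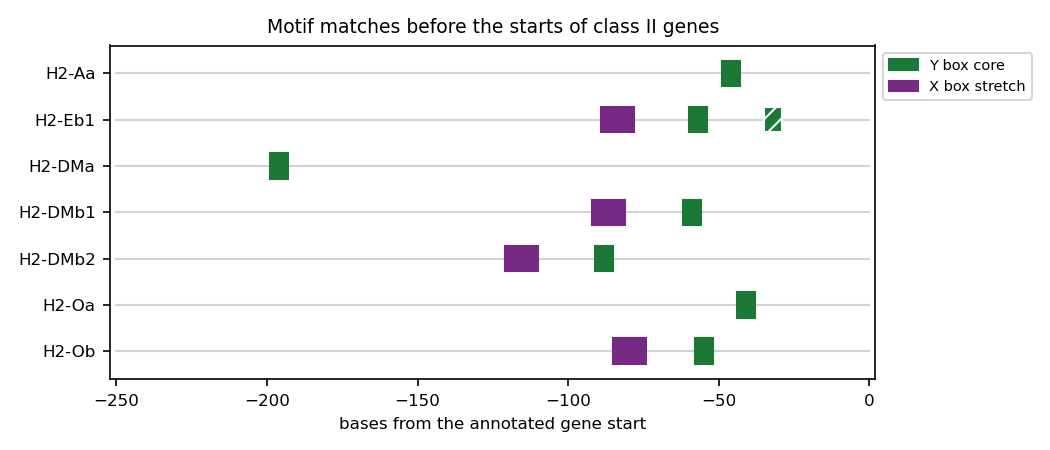
Positions of the motif matches (bars) in the 250 bases before the RefSeq start of 7 class II genes; the horizontal axis is distance from the start in bases, and the hatched bar is a match on the opposite strand. In H2-Eb1, H2-DMb1, H2-DMb2 and H2-Ob the X stretch (purple) stands 16 to 19 bases ahead of the Y box (green).

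Of the 8 arrays, control untreated replicate 2 stood apart. It correlated with the others at a median r of 0.919, where the remaining 7 reached 0.994 to 0.995. For Actb, the 3′ end read above the 5′ end by 2.18 log2 units there and by 0.41 to 0.62 elsewhere, a gap that grows with RNA degradation. The mean of the 10 mesothelial and fibroblast markers was 8.92 there and 6.93 to 7.37 elsewhere, while the 7 macrophage markers averaged 11.79 there and 12.36 to 12.44 elsewhere. The fit used below therefore holds 7 arrays, with control untreated replicate 1 alone in its group and assumed to vary like the others, and each result is also given from 8. The titles call the 2 arrays of a group biological replicates, but which mice went into each pool is not given, and p-values measure only the spread between these arrays, part of which may be technical. The labelled macrophage identity fits the defining transcripts: Lyz2, the lysozyme of myeloid cells, lay between 13.58 and 13.78 and Csf1r, a growth factor receptor of macrophages, between 13.52 and 13.59 on the 8 arrays. Nr3c2 itself was at 5.11 and 5.47 in knockout corticosterone cells, 5.54 and 5.82 in knockout untreated cells, 6.39 and 6.13 in control corticosterone cells, and 6.39 and 8.46 in control untreated cells. Each knockout array was below each control array. Whether that probe set reads the deleted exons is not stated in the labels.

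All levels are log2 values from RMA, and array medians lay between 5.55 and 5.58. Classical class II transcripts were well above that median in every group. H2-Aa, the α chain of the I-A molecule, was at 10.22 and 10.26 in knockout corticosterone cells, 11.13 and 11.07 in knockout untreated cells, 9.66 and 9.76 in control corticosterone cells, and 10.42 and 9.59 in control untreated cells (1435290_x_at). H2-Ab1, its β chain, was at 9.99 and 9.97, then 10.97 and 11.11, then 9.27 and 9.42, and 10.17 and 9.53 in the same 4 groups (1450648_s_at). On 7 arrays the knockout untreated group was the highest for both genes and the control corticosterone group the lowest, with no overlap between any of these groups. H2-Eb1, the β chain of I-E, was at 9.84 and 9.98 in knockout corticosterone cells, 11.06 and 11.01 in knockout untreated cells, 9.35 and 9.34 in control corticosterone cells, and 10.15 and 8.33 in control untreated cells. C57BL/6 mice make no I-E at the cell surface because the gene of its α chain, H2-Ea, is not transcribed. The 3 probe sets of H2-Ea lay between 2.34 and 4.44 over the 8 arrays, below the array medians. Cd74, the invariant chain, was at 12.63 and 12.72 in knockout corticosterone cells, 13.14 and 13.01 in knockout untreated cells, 12.13 and 12.23 in control corticosterone cells, and 12.50 and 11.30 in control untreated cells. For Cd74, but not for the 3 classical chains, knockout cells under hormone lay above control untreated replicate 1. The second value of the control untreated group, from the array that stands apart, was the lowest of the 8 for Cd74, H2-Aa and H2-Eb1.

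**Figure D2:**
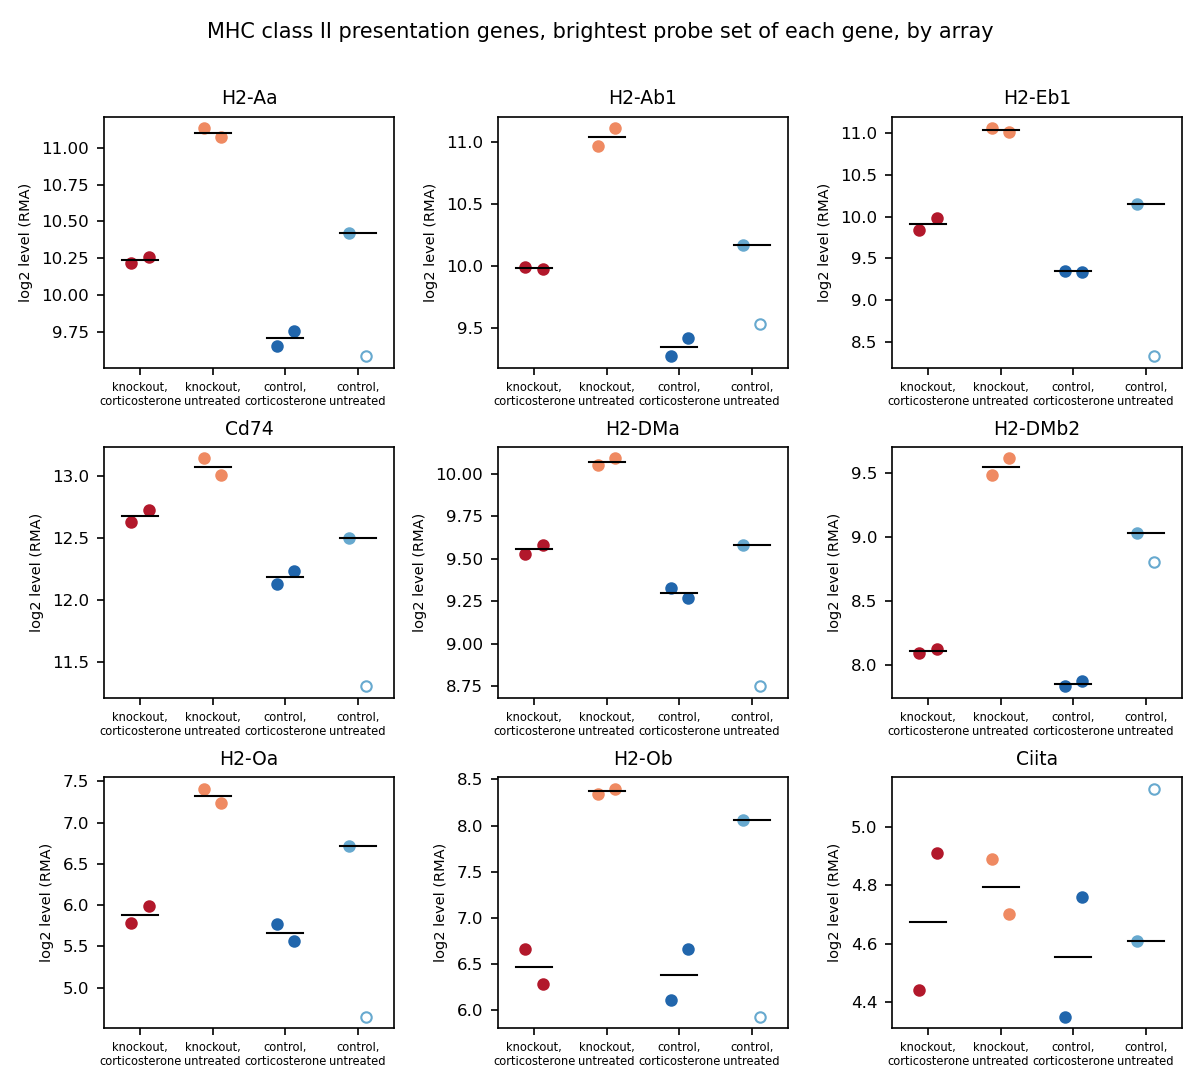
Log2 level (vertical axis, RMA) of the brightest probe set of 9 class II genes on each array, by group; bars are group means over 7 arrays and the open circle is control untreated replicate 2, which is left out of them. Knockout untreated arrays are the 2 highest for each gene except Ciita, whose groups overlap.

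Corticosterone lowered class II transcripts in knockout cells. Of the 22 probe sets 17 fell, none rose and 5 did not pass (limma, adjusted p under 0.05 over all 45037 probe sets). Over all probe sets 4.82% fell and 9.14% were called in either direction. The median difference of the 22 was -0.94 log2 units, against -0.01 over all probe sets. H2-Eb1 fell by 1.12 (SE 0.06, limma adjusted p = 1.58e-06, n = 2 per group), which is 2.18-fold. H2-Ab1 fell by 1.05 (SE 0.06) and H2-Aa fell by 0.86 (SE 0.05, adjusted p = 4.55e-06). Cd74 fell by 0.40 (SE 0.05, limma adjusted p = 0.000590), 1.32-fold. Its level of 12.63 to 13.14 in knockout cells lay above the 3 classical chains, nearer the top of the scale, where changes are compressed. The other probe sets of the classical chains gave -1.19 and -1.05 for H2-Ab1 and -1.06 and -0.49 for H2-Aa, all called. Another one for H2-Aa, 1443783_x_at, lay between 2.46 and 3.20 on 8 arrays, near the floor, and did not pass (-0.21, adjusted p = 0.493). A lower level in bulk cultures can mean fewer cells that express the gene or less RNA in each, and the 2 cannot be told apart here.

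The DM and DO genes spread more widely. H2-DMa, the α chain of the peptide editor, was at 9.53 and 9.58 with hormone and 10.05 and 10.09 without in knockout cells, and fell by 0.51 (SE 0.05, limma adjusted p = 0.000204). H2-DMb2, a DM β chain, was at 8.09 and 8.12 with hormone and 9.48 and 9.61 without (1443687_x_at). It fell by 1.44 (SE 0.07, adjusted p = 1.59e-06), 2.72-fold. Probe set 1443686_at, from the same sequence entry, fell by 1.41, and 1419744_at fell by 0.92. Against these, the probe sets shared by H2-DMb1 and H2-DMb2 hardly moved: 1449580_s_at was at 10.08 and 10.12 with hormone and 10.34 and 10.32 without, and 1418638_at at 9.45 and 9.37 with and 9.55 and 9.60 without. The first fell by 0.23 (adjusted p = 0.0107) and the second did not pass (-0.17, adjusted p = 0.128). How much of the shared signal comes from each copy was not tested. H2-Oa, the α chain of DO, was at 5.78 and 5.99 with hormone and 7.41 and 7.24 without, and fell by 1.44 (SE 0.14, adjusted p = 0.000114). H2-Ob, its β chain, was at 6.66 and 6.28 with and 8.34 and 8.40 without. It fell by 1.90 (SE 0.18, adjusted p = 0.000111), or 3.73-fold, the largest fall among the 22 probe sets in this comparison. The probe set shared with Gm20506 fell by 1.02. Ciita was dim, with its 3 probe sets between 3.87 and 5.42 over the 8 arrays. One of them, 1421211_a_at, was at 4.01 and 4.31 with hormone and 5.42 and 4.83 without in knockout cells, and it fell by 0.96 (SE 0.20, adjusted p = 0.0157). The others gave -0.50 (adjusted p = 0.0570) and -0.12 (adjusted p = 0.818). A level this low is compressed towards background by RMA, so the size of a change in Ciita is uncertain. With 8 arrays the differences within knockout cells are the same but the shared spread is wider, and 0 of 22 passed in limma, with 10 at an unadjusted p under 0.05 and a smallest adjusted p of 0.0926. Of all 45037 probe sets 0.0577% passed in that fit and 1645 had an unadjusted p under 0.05. Fitted on the 4 knockout arrays alone, 17 of 22 passed, against 3159 of all 45037.

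Control cells responded in the same direction on 7 arrays. Of the 22 probe sets 12 fell, none rose and 10 did not pass, with 3.60% of all probe sets lower and 6.79% called either way. The median of the 22 was -0.57, against 0.00 over all probe sets. H2-Ab1 fell by 0.82 (SE 0.08, limma adjusted p = 0.000189), H2-Eb1 fell by 0.80 (SE 0.07), H2-Aa fell by 0.71 (SE 0.06) and Cd74 fell by 0.32 (SE 0.06, adjusted p = 0.0111). H2-Ob, at 6.11 and 6.66 with hormone against 8.06 on control untreated replicate 1, fell by 1.68 (SE 0.22, adjusted p = 0.00128). H2-DMb2 fell by 1.18 (SE 0.09), H2-Oa fell by 1.05 (SE 0.17) and H2-DMa fell by 0.27 (SE 0.07, adjusted p = 0.0352). None of the 3 Ciita probe sets passed, with differences of -0.54, -0.53 and -0.05. These values rest on 1 untreated control array. With 8 arrays 0 of 22 passed in limma, where 0.0622% of all probe sets did. Of the 22, 3 had an unadjusted p under 0.05, against 3686 of all 45037. The differences of Cd74, H2-Eb1 and H2-DMa turned to 0.28, 0.11 and 0.14. With control untreated replicate 2 in place of replicate 1, Cd74, H2-Aa, H2-Eb1, H2-DMa, H2-Oa and H2-Ob were higher with hormone on their brightest probe sets. H2-Ab1, H2-DMb2 and Ciita were lower. That array stands apart over all probe sets, not in these genes alone. The direction of the hormone effect in control cells therefore depends on which of the 2 untreated arrays is used, while in knockout cells it does not involve them.

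Cd74 and the classical chains H2-Aa, H2-Ab1 and H2-Eb1 were higher in knockout than in control cells, both under hormone and without it, on 7 arrays with a variance trend in the fit. Without that trend 0 of 22 probe sets passed in either genotype comparison. Of all 45037 probe sets 100 passed under corticosterone in that fit. Under corticosterone, where both groups have 2 arrays, 6 of 22 probe sets were higher, none lower and 16 did not pass; over all probe sets 0.619% were higher and 0.795% were called. The 6 were Cd74, H2-Eb1, 2 of H2-Aa and 2 of H2-Ab1. H2-Ab1 rose by 0.63 (SE 0.06, limma adjusted p = 0.00111), 1.55-fold, H2-Eb1 by 0.56 (SE 0.06), H2-Aa by 0.53 (SE 0.05, adjusted p = 0.000721) and Cd74 by 0.49 (SE 0.05, adjusted p = 0.000987). None of the 7 DM, 3 DO and 3 Ciita probe sets passed. H2-DMa (0.25, adjusted p = 0.0860) and H2-DMb2 (0.26, adjusted p = 0.252) did not pass, nor did H2-Oa (0.21, SE 0.14) and H2-Ob (0.09, SE 0.18). The arrays of the groups did not overlap for 15 of the 22 probe sets, each higher in knockout cells, against 18.4% of all probe sets. The median of the 22 was 0.25, against -0.01 over all. With 8 arrays none of the 22 passed, nor did any of all 45037 probe sets. Of the 22, 1 had an unadjusted p under 0.05, against 532 of all 45037. When only the 4 corticosterone arrays were fitted, 6 of 22 passed, against 553 of all 45037.

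Without hormone 10 of 22 were higher in knockout cells, none lower and 12 did not pass, with 0.666% of all probe sets higher and 0.977% called. H2-Eb1 was higher by 0.88 (SE 0.07, limma adjusted p = 0.000230), H2-Ab1 by 0.87 (SE 0.08), H2-Aa by 0.68 (SE 0.06) and Cd74 by 0.58 (SE 0.06, adjusted p = 0.00162). H2-DMa at 10.05 and 10.09 in knockout cells, against 9.58 on control untreated replicate 1, was higher by 0.49 (SE 0.07, adjusted p = 0.00747). H2-DMb2 was higher by 0.52 (SE 0.09, adjusted p = 0.0296). H2-Oa (0.61, SE 0.17, adjusted p = 0.165) and H2-Ob (0.31, SE 0.22, adjusted p = 0.636) did not pass, and neither did any Ciita probe set. Here the array that stands apart reads lower still for most members: with 8 arrays 19 of the 22 probe sets were higher on each knockout array than on each control array, against 17.6% of all probe sets. In that fit 0 of 22 passed in limma, as did 0 of all 45037 probe sets. Of the 22, 15 had an unadjusted p under 0.05, against 2110 of all 45037, and the smallest adjusted p was 0.516. Both genotype comparisons and both hormone comparisons share groups, so their values are given side by side and are not independent.

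The difference between the hormone effects of the 2 genotypes was itself tested. None of the 22 probe sets passed in limma, and 0.00888% of all probe sets passed. The differences of the 9 brightest probe sets were all negative, from -0.39 for H2-Oa to -0.07 for Ciita, meaning a larger fall in knockout cells. All of them rest on control untreated replicate 1 as the only untreated control array, so their shared sign is not independent between genes. H2-Ab1 on 1451721_a_at had the smallest p (-0.58, SE 0.11, adjusted p = 0.640), while its brightest probe set gave -0.24 (SE 0.10, adjusted p = 0.876). With 8 arrays none passed, here or over all probe sets. None of the 22 had an unadjusted p under 0.05, against 682 of all 45037.

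**Figure D3:**
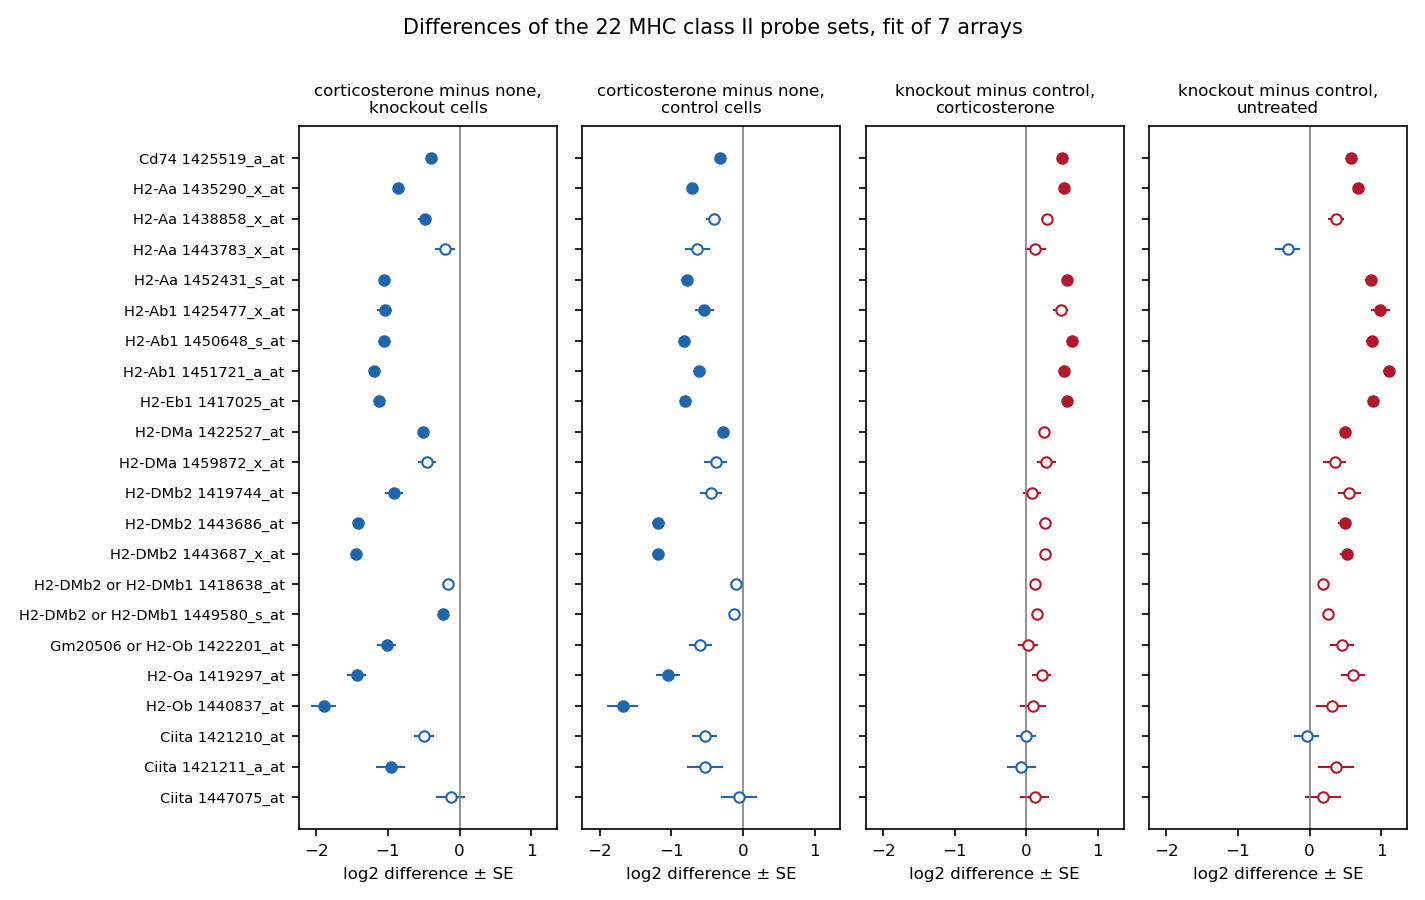
Log2 difference (horizontal axis) of the 22 class II probe sets (rows) in 4 comparisons, from the fit of 7 arrays; bars are SE, filled points passed at an adjusted p under 0.05 and open points did not. Hormone differences are negative for all 22 probe sets in both genotypes, and under corticosterone the 6 filled genotype differences belong to Cd74, H2-Aa, H2-Ab1 and H2-Eb1.

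B cells carry class II abundantly and are the main cells with DO, so their markers were set beside these genes. The 12 measured markers averaged 6.84 and 6.85 log2 units in knockout corticosterone cells, 8.04 and 8.02 in knockout untreated cells, 6.78 and 6.78 in control corticosterone cells, and 7.81 and 7.08 in control untreated cells. Their summed level on the linear scale was 2414 to 2447, 5512 to 5628, 2393 to 2465 and 4755 to 6336 in the same order. The 6336, on control untreated replicate 2, was carried by Ebf1, singled out after its values were seen, which read 11.99 there and 8.60 to 9.54 elsewhere and which stromal cells also express. Without Ebf1 the sum was 2268 there and 4232 on control untreated replicate 1. They fell with hormone: 9 of 12 in knockout cells and 10 of 12 in control cells on 7 arrays, and none rose, against 7.27% and 5.22% of all 18193 genes that fell (brightest probe set each). For lists counted as rising below, 5.20% of all genes rose in knockout and 4.34% in control cells. Cd79a, a chain of the B cell receptor complex, fell by 1.48 (SE 0.07, limma adjusted p = 1.58e-06) in knockout cells, Ms4a1, which encodes CD20, fell by 1.96 and the sialic acid receptor gene Cd22 fell by 0.95. In control cells Pou2af1, a B cell coactivator, fell by 1.51, the immunoglobulin heavy chain gene Ighm fell by 1.22 and Fcrla fell by 1.67. The list median was -1.39 in knockout and -1.14 in control cells, against -0.02 and 0.00 over all genes. Pax5, the factor that fixes B cell identity, lay between 3.27 and 3.58 on the 8 arrays, about the lower quartile of each array (3.49 to 3.62), and Cr2 between 3.39 and 4.38. With 8 arrays no B cell marker was called in these comparisons.

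Between genotypes the 2 sets of genes gave different counts. Under corticosterone 0 of 12 B cell markers passed in limma (1.31% of all genes did), with a median of 0.06 and a range of -0.24 to 0.30, beside 6 of 22 class II probe sets. The differences of Cd74, H2-Aa, H2-Ab1 and H2-Eb1 on their brightest probe sets, at 0.49 to 0.63, lay above that whole range. Those of H2-DMa (0.25), H2-DMb2 (0.26), H2-Oa (0.21), H2-Ob (0.09) and Ciita (0.11 on its brightest probe set) lay inside it, as did 2 dimmer probe sets of H2-Aa (0.29 and 0.13). Without hormone 1 of 12 markers was higher in knockout cells, Cd79a by 0.51 (SE 0.09, adjusted p = 0.0355), and the list median was 0.27. Over all genes 1.58% passed there. Ighm (0.40, adjusted p = 0.126) and Fcrla (0.40, adjusted p = 0.266) did not pass. No test set one list against the other, and the part of B cells in the class II values was not tested.

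T and NK cell markers moved with hormone too. Of 6 measured, 5 fell in knockout and 5 in control cells on 7 arrays, with Lat, an adaptor of the T cell receptor, down by a log2 change of -1.76 and -1.72, and Cd3e, a chain of its CD3 complex, by -1.69 and -1.49. Their mean was 5.10 and 5.12 in knockout corticosterone cells, 6.60 and 6.60 in knockout untreated cells, 5.28 and 5.32 in control corticosterone cells, and 6.38 and 5.93 in control untreated cells. None of the 6 passed between genotypes, and with 8 arrays Cd3g alone passed, in knockout cells. Among 7 dendritic cell markers 3 fell in each genotype with hormone and 1 rose in knockout cells. Cd209a, which encodes the mouse lectin DC-SIGN, was at 3.97 and 4.54 in knockout corticosterone cells, 6.33 and 6.38 in knockout untreated cells, 3.53 and 3.60 in control corticosterone cells, and 5.83 and 4.37 in control untreated cells. Cd209a fell by 2.10 in knockout and 2.27 in control cells. Between genotypes it was higher in knockout cells by 0.69 with hormone and 0.52 without, and was not called. The integrin gene Itgax, which macrophages of this kind also express, lay between 12.58 and 13.16, fell by 0.44 in knockout and 0.45 in control cells and was lower in knockout cells under hormone by a log2 difference of -0.14 (adjusted p = 0.0217) and without hormone by -0.15 (adjusted p = 0.0427), opposite to class II. Xcr1, which defines cross-presenting dendritic cells, lay between 3.42 and 3.78 on 8 arrays, and Flt3, the receptor that maintains dendritic cells, between 3.35 and 4.32. Flt3 was the marker that rose with hormone in knockout cells, by 0.63 (SE 0.16). Between genotypes Itgax was the only dendritic cell marker called. Of the 7, 5 gave positive differences with hormone and 5 without, with list medians of 0.19 and 0.04. The 7 macrophage markers averaged 12.43 and 12.43, 12.42 and 12.38, 12.43 and 12.44, and 12.36 and 11.79 in the 4 groups in the same order. With hormone 3 of these 7 rose and 1 fell in each genotype: Cd14 rose by 0.23 in knockout and 0.35 in control cells, and Itgam fell by 0.52 and 0.38. Cd14 was also higher in knockout than in control cells, by 0.16 with hormone and 0.28 without. Of the 10 mesothelial and fibroblast markers, Msln and Krt19 rose with hormone in knockout cells by 0.70 and 0.66. In control cells they gave 0.31 and -0.15, and Wt1 fell by 0.87. Msln lay between 3.75 and 4.81 and Krt19 between 4.76 and 5.64 on the 8 arrays, near or below the array medians. None of the 10 passed between genotypes, but under corticosterone all 10 differences were positive, with a median of 0.24. Without hormone 4 of the 10 were positive, with a median of -0.10. The part of T, NK, dendritic, mesothelial or fibroblast cells in the class II values was not tested.

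**Figure D4:**
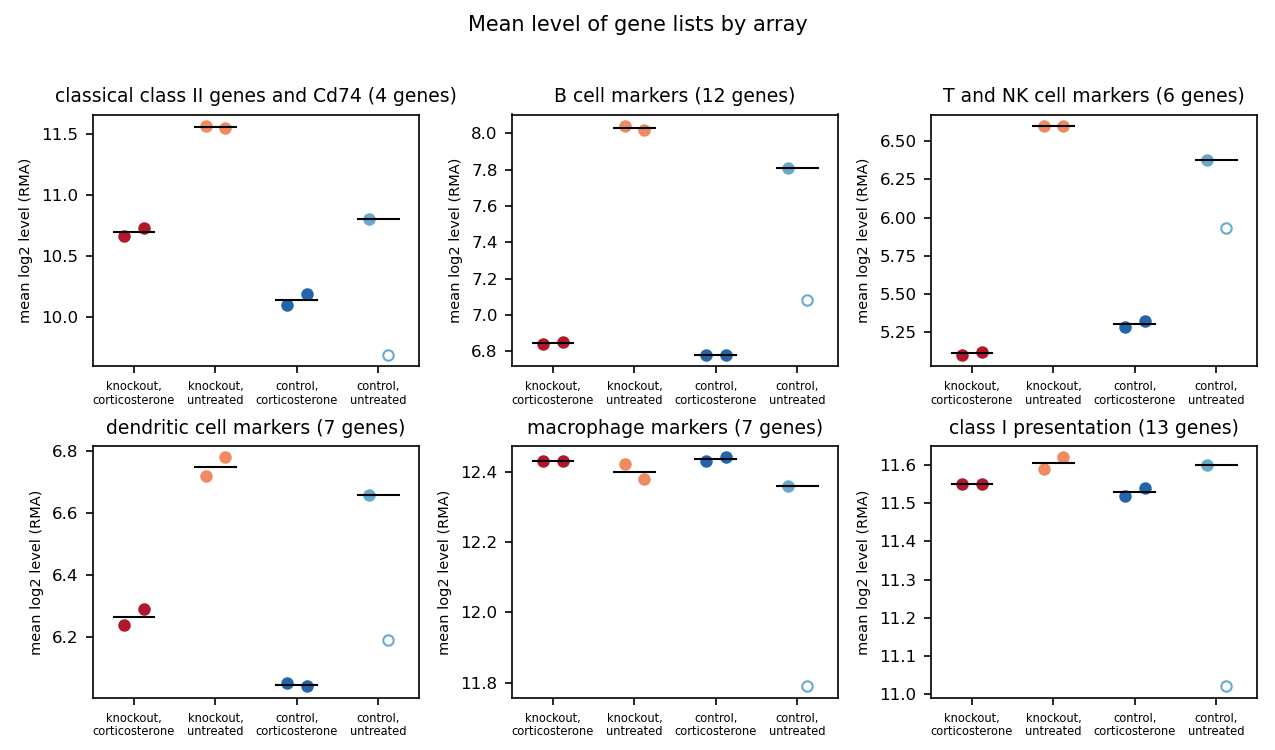
Mean log2 level (vertical axis, RMA; each panel has its own range) of 6 gene lists on each array, by group; bars are group means over 7 arrays and the open circle is control untreated replicate 2. Under corticosterone the classical genes average 10.67 and 10.73 in knockout and 10.10 and 10.19 in control cells, while B cell markers average 6.84 and 6.85 in knockout and 6.78 and 6.78 in control cells.

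Other genes of the class II pathway were read from lists, and no test set these lists against the members. Of 8 enzymes that prepare class II ligands, 2 rose and 1 fell with hormone in knockout cells, 1 rose and 1 fell in control cells, and none passed between genotypes. Ifi30, the lysosomal thiol reductase, fell by 0.24 in knockout cells (limma adjusted p = 0.000298) and 0.24 in control cells, and legumain (Lgmn), an asparagine-specific protease, rose by 0.41 and 0.42. Cathepsin S (Ctss), which trims the invariant chain, lay between 13.67 and 13.76 on 8 arrays. It and the cathepsin genes Ctsl, Ctsb, Ctsd and Ctsz lay close to the top of the scale, where changes are compressed. Among 11 transcription factors of class II or of Ciita, 5 fell with hormone in knockout cells (7.27% of all genes did) and 3 in control cells (5.22% of all genes), none rose, and none passed between genotypes. Irf1, which acts at the interferon-responsive promoter of Ciita, was at 9.33 and 9.32 in knockout corticosterone cells and 9.94 and 9.89 in knockout untreated cells, and fell by 0.59 (SE 0.05, adjusted p = 6.40e-05). In control cells it was at 9.31 and 9.30 with hormone, against 9.86 on untreated replicate 1, and fell by 0.55. Irf8 fell by 0.23 and 0.24. The X box factor genes Rfx5, Rfxank and Rfxap were not called in any of the 5 comparisons, while of the 3 Y box factor genes Nfya fell by 0.14 in knockout and 0.18 in control cells and Nfyc fell by 0.17 in knockout cells. The genotype difference of Irf1 was not called with hormone or without.

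Of 6 genes of the interferon gamma receptor and its signalling, Ifngr2 fell by 0.27 in knockout cells (limma adjusted p = 0.0396) and Socs3, a feedback inhibitor of cytokine signalling, rose by 0.84 in knockout and 0.78 in control cells. Among 5 genes that repress class II or turn it over, Marchf1, the ubiquitin ligase that sends class II for degradation, fell by 0.34 in knockout and 0.45 in control cells, and Marchf8 rose by 0.22 in knockout cells. Prdm1, a repressor of Ciita in plasma cells, fell by 0.57 in knockout cells. Neither list had a member called between genotypes. H2-Eb2, a neighbour of H2-Eb1, fell by 1.31 in knockout cells (SE 0.20, adjusted p = 0.00216) and gave -0.79 in control cells (adjusted p = 0.0938).

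MHC class I presentation, read from 13 genes, shifted little. H2-K1, H2-D1 and B2m lay between 12.73 and 13.71 on the 8 arrays, close to the top of the scale, where changes are compressed. Only Tapbp (-0.09) and Psmb8 (-0.20) fell in knockout cells and Tapbp (-0.11) in control cells, none rose, and none passed between genotypes on 7 arrays. The list medians were -0.05 and -0.09 with hormone in knockout and control cells, and 0.01 and -0.04 for knockout against control with hormone and without. Costimulation genes split. Cd40 fell by 0.72 in knockout and 0.45 in control cells and was higher in knockout cells without hormone by 0.39 (SE 0.07, limma adjusted p = 0.0404). Cd274, which encodes PD-L1, fell by 0.41 in knockout and 0.39 in control cells, whereas Icosl rose by 0.65 in knockout and 0.72 in control cells. Of the 6 costimulation genes, Cd40 was the one called between genotypes, and with 8 arrays none of the genes in these 7 lists was called in any comparison.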

How the data were processed

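Affymetrix mouse arrays measured total RNA of 8 samples in 4 groups. The authors deposited log2 expression values per probe set, made with RMA in R 2.7 per the submitters' processing notes. RMA subtracts background, equalises the distributions of the arrays and summarises probes, so values are relative within an array and changes near background or saturation are compressed. No detection calls come with them, so depth per gene is not known and the number of arrays limits the precision.

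Of 45101 probe sets 64 were controls. Names came from the platform annotation, updated through Entrez identifiers to GRCm38.p6 symbols for 34754 of the probe sets with 1 gene; 204 kept the older symbol. Suffixes _s_at and _x_at mark probe sets that can read related sequences. limma 3.58.1 in R 4.3.3 was fitted to all 45037 other probe sets with 1 coefficient per group and a variance trend, giving 5 contrasts with Benjamini-Hochberg adjustment. A gene in a list is read by its brightest probe set over 7 arrays. The fit was tested on simulated data. Members, lists, the 7-array fit and alternatives were chosen with earlier results of these data known, and the fit of 5 arrays was added after the values were seen. Named are all member probe sets and, per list, up to 3 genes with the smallest p in a comparison, besides low markers that define a cell type and genes named as not called, which were chosen after their values were seen.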

Additional observations from a re-analysis of the deposited data

How the results depend on the processing

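Among repeats of a single gene's difference, 666 kept direction and side of the threshold, 86 lost the call, 11 gained one and 15 turned. The counts of called probe sets in the order hormone in knockout, hormone in control, genotype under hormone and genotype without hormone were 17, 12, 6 and 10 of 22. With 8 arrays they were 0, 0, 0 and 0, with or without the replicate block. Array weights on 8 arrays gave 17, 0, 6 and 0, against 2666, 10, 275 and 0 of all 45037 probe sets. Without the variance trend they were 14 for hormone in knockout and 0 for genotype under hormone, against 1688 and 100 of all 45037 probe sets. Fewer members were called for hormone in control cells, and none in either genotype comparison. With 1 probe set per gene they were 8, 8, 5 and 6 of 9. With 5 arrays the last was 6, and the others 15, 14 and 6. Leaving out 1 array other than an untreated control gave 14 to 17, 9 to 14, 4 to 6 and 8 to 11. With control untreated replicate 2 in place of replicate 1, hormone in control cells gave 14 (11 higher, 3 lower), genotype without hormone 20 and the interaction 19; the interaction count was 0 in every other fit. With replicate 2 alone in that group, most of all 45037 probe sets were called in each of these comparisons. The 14, 20 and 19 are therefore not particular to class II. Control untreated replicate 2 turned the hormone difference in control cells to 0.88 for Cd74, 0.12 for H2-Aa and 1.01 for H2-Eb1. It also turned H2-DMa to 0.55, H2-Oa to 1.02 and H2-Ob to 0.46. In the 3 other fits of 8 arrays (plain, replicate block, array weights) Cd74 was 0.28, H2-Eb1 0.11 and H2-DMa 0.14. The cause was not tested. The replicate block on 7 arrays gave 17, 11, 6 and 8. The difference of replicate 2 minus 1 correlated between groups at -0.23 to 0.32 over 6 pairs of groups. Pairs with the untreated control group, which hold the array that stands apart, gave -0.23, 0.32 and 0.00. The other pairs gave -0.18, 0.03 and 0.01. Each value rests on 2 arrays per group and a weak shared effect would not show, so whether replicate numbers pair the samples cannot be told. Another background correction was not possible from these values.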

Other observations

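The transcripts whose pattern over 7 arrays was most like the mean of H2-Aa, H2-Ab1, H2-Eb1 and Cd74, among 1058 genes with a range of at least 1 log2 unit, were Clec4e, Cdk1, Ralgps2, Uhrf1, Cxcl5, Rad54b, Kntc1, Mlxipl, Fignl1 and Pld4, with Pearson's r of 0.986 to 0.994. These correlations describe 7 arrays in 4 groups and carry no test, and 135 genes had an r above 0.9. Clec4e, the receptor Mincle for mycobacterial glycolipid, was at 9.72 and 9.80 in knockout corticosterone cells, 10.41 and 10.43 in knockout untreated cells, 9.44 and 9.40 in control corticosterone cells, and 9.83 and 8.98 in control untreated cells. Pld4, an endolysosomal nuclease, was at 10.26 and 10.31, 10.84 and 10.76, 9.69 and 9.76, and 10.35 and 10.27 in the same order. Cdk1, the kinase that drives mitosis, and Uhrf1, which maintains DNA methylation through replication, are genes of dividing cells. On control untreated replicate 2 these 2 read 9.49 and 12.07, above their range on the other 7 arrays, whereas class II read low there. With 8 arrays 2 of the 10 stayed among the first 10, and Clec4e remained first (r = 0.995).

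Among list genes with a range of at least 1 log2 unit, Cd209a was nearest to the class II pattern over 7 arrays. Its r was 0.927 (rank 91 of 1058), followed by Ighm (r = 0.916, rank 109) and Cd79a (r = 0.904, rank 125). List genes with a smaller range, such as Cd40, were left out of this ranking. With 8 arrays the order was another: Blk (r = 0.935, rank 21), Ighm (0.923), Cd2 (0.916) and Ccr7 (0.914) came before Cd209a (0.829, rank 79). Of the class II genes outside that mean, H2-DMa had an r of 0.989, H2-DMb2 of 0.933, H2-Oa of 0.930 and H2-Ob of 0.853 with it, and Ciita had the lowest.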
